A study of Mus musculus with 12 samples.

Results

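The Cyp4a genes encode liver and kidney cytochrome P450 enzymes that hydroxylate fatty acids at their terminal carbon. The array's probe annotation was searched for 6 of them, Cyp4a10, Cyp4a14, Cyp4a31, Cyp4a32, Cyp4a12a and Cyp4a12b, and every matching row was kept. This gave 6 of 28853 probes. There was 1 probe each for Cyp4a14 (10515187), Cyp4a10 (10507163), Cyp4a31 (10507171), Cyp4a12a (10507143) and Cyp4a12b (10507152). The sixth probe (10507177) is annotated to Cyp4a32, Cyp4a31 and Cyp4a10 together and is called the shared probe here. Cyp4a32 had no probe of its own, so its RNA was read only through the shared probe. The family was selected on its log2 difference between mTERT KO and mTERT WT livers in these same arrays. That difference is therefore given as a description with no test, while the other comparisons did not enter the choice.

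Total RNA was measured in 12 livers of male C57BL/6J mice, 1 array per animal, in 4 groups of 3. The groups were first-generation (G1) mTERT KO mice, which lack the protein subunit of telomerase, and mTERT WT mice, then G1 mTR KO mice, which lack the telomerase RNA, and mTR WT mice. The series text states that animals were matched for age and that each set holds a WT animal and its KO littermate; the ages and the nature of the deleted alleles are not given in the sources used here. Animals were untreated, and the number that closes each title (1, 2 or 3) is read here as the set, which gives 6 litters.

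In liver, the Cyp4a10, Cyp4a14, Cyp4a31 and Cyp4a32 genes are induced by PPARA, a nuclear receptor that binds fatty acids and fibrate drugs, pairs with a retinoid X receptor and turns on fatty acid oxidation. Omega-hydroxylation prepares fatty acids for conversion to dicarboxylic acids, which are shortened in peroxisomes. Cyp4a12a and Cyp4a12b are higher in males than in females in mouse liver and kidney, and Cyp4a12a makes the vasoactive arachidonic acid metabolite 20-HETE.

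In the RefSeq annotation (GRCm38.p6) the 6 genes lie in one cluster on chromosome 4. The promoter of Cyp4a32, the gene seen only through the shared probe, is shown because it was the 1 of the 6 members found in the RefSeq promoter table. It runs over chr4:115600688-115600987 on the plus strand, from 250 bases before the annotated start to 50 bases after it. Capitals mark matches to the TATA box TATAAA (minus strand, starting at position −113), the CCAAT box CCAAT (minus strand, position −80) and the nuclear receptor half-site with 1 free base, AGGNCA (plus strand, position 10).
Cyp4a32 promoter: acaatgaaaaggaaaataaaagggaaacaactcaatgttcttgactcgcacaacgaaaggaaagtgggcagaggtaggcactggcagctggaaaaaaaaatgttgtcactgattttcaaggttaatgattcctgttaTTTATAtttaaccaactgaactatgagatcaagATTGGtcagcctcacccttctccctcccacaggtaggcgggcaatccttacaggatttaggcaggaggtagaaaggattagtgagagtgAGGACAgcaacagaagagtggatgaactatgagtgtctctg
On both strands of all 32851 promoters of this length in the table, TATAAA was found in 13.6%, CCAAT in 37.4% and AGGNCA in 57.2%. The half-site AGGTCA (in 16.3% of all promoters), the full PPARA-RXR direct repeat made of a pair of these half-sites 1 base apart (0.040%) and the GC box GGGCGG (35.7%) were not in this window. The 3 matches do not overlap here, and every AGGTCA is also an AGGNCA by its letters. The window held 42.7% G and C, against a median of 52.7% over all promoters.

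All values below are log2 intensities as deposited. Their log base is not given in the sources used here; it was read as 2 because values ran from 2.62 to 13.83. No level is set against that of another probe, since probes differ in response. Pairs of arrays correlated at 0.970 to 0.996. Background was set at 4.34, the 95th percentile of 1015 olfactory receptor genes on each array, averaged over the arrays. All 6 Cyp4a probes were above it on every array. The hepatocyte list (6 measured genes, such as albumin) averaged 12.28 to 12.48 on all arrays. The renal tubule list (4 genes, for the other Cyp4a tissue) averaged 3.64 to 3.87, below background in all groups. Transcripts of the exocrine pancreas (9 genes) averaged 7.13 to 11.27 on 5 arrays (mTERT KO 1, mTERT WT 1, mTERT WT 2, mTR KO 1 and mTR WT 2) and 3.95 to 4.14 on the other arrays. Skeletal muscle transcripts (10 genes) averaged 6.78 on mTERT WT 1 and 6.34 on mTERT WT 3, and 3.92 to 4.54 elsewhere. Acute phase genes (16 genes, a list chosen after values were seen) averaged 11.08 on mTERT WT 1 and 9.43 to 9.96 elsewhere. These arrays stand apart. Values without mTERT WT 1 or without the pancreas-bearing arrays are given beside some of the results they move. Values without mTERT WT 3 alone are not listed. In whole liver RNA, fewer cells of a type and less RNA per cell cannot be told apart.

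Cyp4a14, the member with the widest range, was higher in mTERT KO than in mTERT WT livers. It read 7.79, 10.49 and 10.17 in mTERT KO livers of sets 1, 2 and 3, and 5.68, 7.52 and 8.89 in mTERT WT livers. Each KO liver was above its WT littermate, but the groups overlapped, since the set 1 KO liver lay below the set 3 WT liver. The means were 9.48 ± 1.48 in mTERT KO and 7.37 ± 1.61 in mTERT WT livers (SD, n = 3 each). The KO minus WT difference was 2.12, a 4.34-fold difference, and came to 2.10, 2.97 and 1.28 in the 3 litters. With 1 array left out the difference of the means ran from 1.28 (without mTERT WT 1) to 2.97 (without mTERT KO 1), and without both arrays of set 1 it was 2.12. It was the highest mTERT KO minus WT difference of all 19938 measured genes. The family was picked on this difference, so nothing is read from the rank. Without the 5 arrays with pancreas transcripts, which leaves 2 mTERT KO livers and 1 WT liver, the difference was 1.44.

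Cyp4a31, another PPARA-inducible member, read 6.83, 8.98 and 8.77 in mTERT KO livers and 5.62, 7.79 and 7.84 in mTERT WT livers. Both set 1 livers were the lowest of their group, and the litter differences were close to each other at 1.21, 1.19 and 0.93. The mean difference was 1.11 (2.16-fold). Cyp4a31 and Cyp4a14 were the only probes of 20197 tested (0.0099%) with a mean in mTERT KO livers at least 2-fold above mTERT WT livers. As the family was picked on this contrast, nothing is read from that count. Without mTERT WT 1 the Cyp4a31 difference of the means was 0.38, below 2-fold, and without both arrays of set 1 it was 1.06.

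Cyp4a10, which shares PPARA induction and much of its sequence with Cyp4a31, read 7.83, 9.14 and 8.46 in mTERT KO livers and 6.74, 8.09 and 7.80 in mTERT WT livers. The difference was 0.93 (1.91-fold), with 1.09, 1.05 and 0.66 in the litters. The shared probe read 9.38, 10.53 and 10.22 in mTERT KO livers and 8.04, 9.63 and 9.68 in mTERT WT livers, a difference of 0.93. Without mTERT WT 1 the differences of the means were 0.53 for Cyp4a10 and 0.39 for the shared probe. Because the shared probe can bind RNA of Cyp4a10, Cyp4a31 and Cyp4a32, its values do not show which gene moved. The 4 inducible probes were thus higher in KO in 3 of 3 mTERT litters, where 13.9% of all tested probes were. That is the contrast by which the family was picked, so nothing is read from the count.

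The male-biased members differed less and in the other direction on average. Cyp4a12a read 11.08, 11.41 and 11.06 in mTERT KO livers and 11.29, 11.77 and 11.27 in mTERT WT livers. Its difference of −0.26 had the same sign in all 3 litters (−0.21, −0.35 and −0.22), as 9.69% of tested probes did in that direction. Cyp4a12b read 10.91, 11.38 and 11.03 in mTERT KO livers and 10.86, 11.66 and 11.09 in mTERT WT livers. Its litter differences were 0.04, −0.28 and −0.06, around a mean of −0.10. For all 6 probes the mTERT KO and WT groups overlapped, whereas 4.33% of tested probes had groups that did not.

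**Figure D1:**
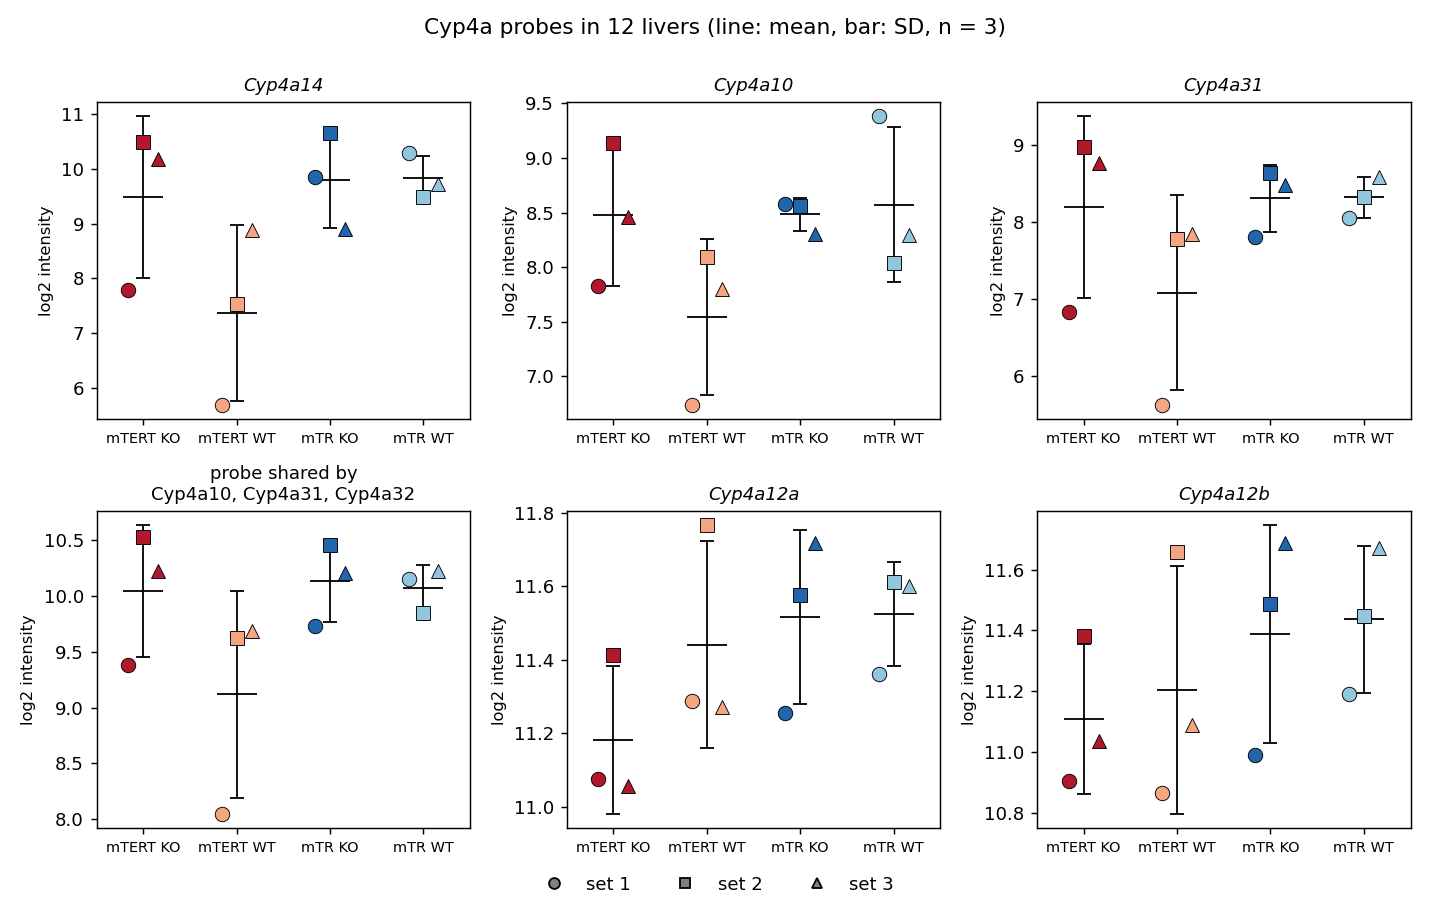
Log2 intensity (vertical axes, which differ between panels) of the 6 Cyp4a probes in the 4 groups; each point is 1 liver, its shape gives the set, the line is the mean and the bar the SD of 3 livers. The lowest point of Cyp4a14, Cyp4a10, Cyp4a31 and the shared probe is mTERT WT 1, at 5.68, 6.74, 5.62 and 8.04.

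In the mTR line none of the 6 probes passed the test of KO against WT, and the mean differences lay between −0.09 and 0.06. Cyp4a14 read 9.86, 10.65 and 8.90 in mTR KO livers and 10.29, 9.48 and 9.72 in mTR WT livers. The means were 9.81 ± 0.876 in mTR KO and 9.83 ± 0.412 in mTR WT livers (SD, n = 3 each). By limma the difference was −0.03 (SE 0.819), with a 95% interval of −1.82 to 1.77. With the litter as a replicate block the interval was −0.83 to 0.78. The difference between the KO effects of the lines was not tested, since the mTERT contrast chose the family. The KO liver was the lower one in litters 1 and 3 (−0.43 and −0.82) and the higher one in litter 2 (1.17).

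Cyp4a10 read 8.58, 8.56 and 8.31 in mTR KO livers and 9.38, 8.04 and 8.30 in mTR WT livers. The difference was −0.09 (SE 0.419, 95% interval −1.01 to 0.83). Cyp4a31 read 7.81, 8.63 and 8.48 in mTR KO livers and 8.06, 8.32 and 8.59 in mTR WT livers, a difference of −0.01 (SE 0.621, 95% interval −1.37 to 1.35). With the litter as a replicate block the intervals were −0.54 to 0.36 for Cyp4a10 and −0.27 to 0.24 for Cyp4a31. For both genes litter 1 had the lower value in the KO liver and litter 2 in the WT liver.

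The shared probe read 9.74, 10.46 and 10.20 in mTR KO livers and 10.15, 9.84 and 10.23 in mTR WT livers, a difference of 0.06 (SE 0.409). Cyp4a12a read 11.26, 11.58 and 11.72 in mTR KO livers and 11.36, 11.61 and 11.60 in mTR WT livers. Its interval was the narrowest of the 6, at −0.38 to 0.36 around −0.01, and Cyp4a12b had −0.56 to 0.46 around −0.05. With the replicate block these were −0.20 to 0.18 and −0.26 to 0.16, and limma called 0 of the 6 probes in that fit too. limma with Benjamini-Hochberg adjustment called 0 of the 6 probes in mTR KO against WT (adjusted p 1.00 for each, with an unadjusted p of 0.832 for Cyp4a10 as the lowest). Over all tested probes it called 0%, and 195 probes (0.965%) had an unadjusted p under 0.05. The groups overlapped for all 6 probes, whereas 4.48% of tested probes had groups that did not. Without the 5 arrays with pancreas transcripts the differences were −0.22 for Cyp4a14, −0.41 for Cyp4a10 and 0.23 for Cyp4a31, and limma again called 0.

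**Figure D2:**
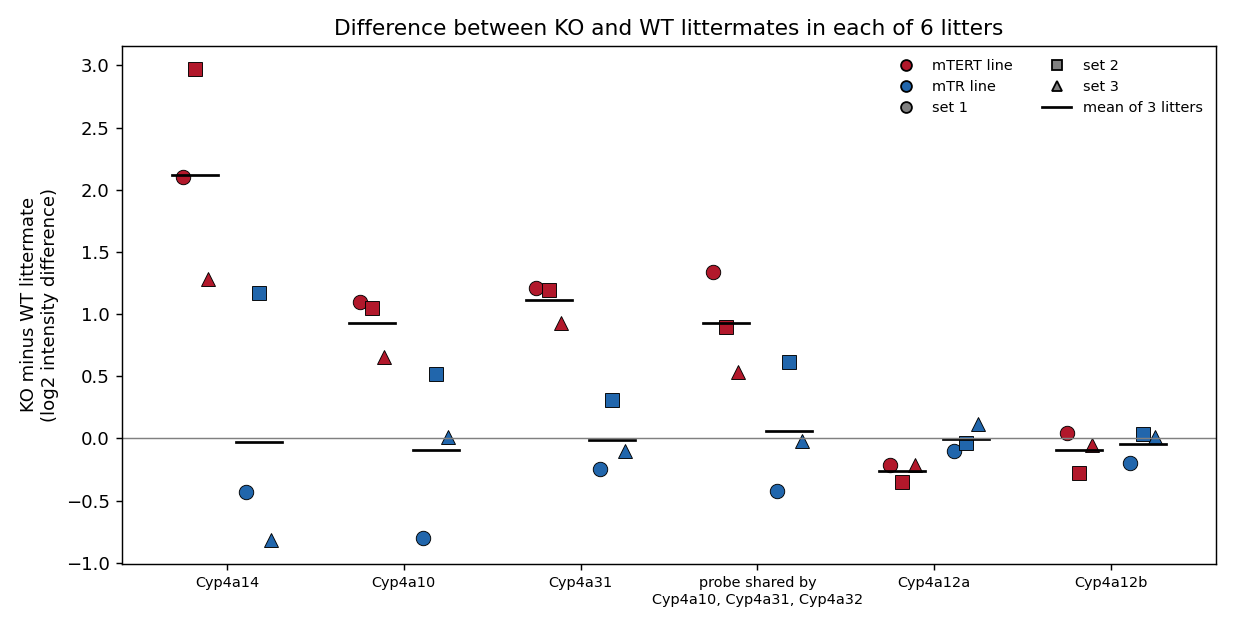
Difference in log2 intensity between a KO liver and its WT littermate (vertical axis) for each Cyp4a probe, with the mTERT line in red and the mTR line in blue; point shape gives the set and the line is the mean of 3 litters. Points of the 4 inducible probes are above 0 in all 3 mTERT litters and on both sides of 0 in the mTR litters.

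Ordered by mean, mTERT WT was the lowest group for each of the 4 inducible probes, and the other 3 groups stood close together. For Cyp4a14 the order was mTR WT (9.83), mTR KO (9.81), mTERT KO (9.48) and mTERT WT (7.37). The gaps between the first 3 were 0.03 and 0.32, inside the SD of either group, and the gap to mTERT WT was 2.12, above the larger SD of 1.61. For Cyp4a31 the gap to mTERT WT was 1.11, below the larger SD of 1.27, and for the shared probe it was 0.926, below the larger SD of 0.930. The Cyp4a10 gap of 0.93 exceeded its larger SD of 0.713.

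Set against the mTR line, Cyp4a14 averaged −0.32 in mTERT KO relative to mTR KO livers and −2.46 in mTERT WT relative to mTR WT livers. For Cyp4a10 these values were −0.01 between the KO groups and −1.03 between the WT groups. For Cyp4a31 they were −0.12 and −1.24, and for the shared probe −0.09 and −0.96, again KO groups first. For each of these 4 probes the gap between the lines was wider between the WT groups than between the KO groups. This comparison uses the same mTERT WT arrays as the contrast by which the family was picked and is given without a test. Cyp4a12a had only the mTERT groups in the reverse order, with the mTR groups again highest. mTERT KO was lowest at 11.18 ± 0.201, below mTERT WT at 11.44 ± 0.281, mTR KO at 11.52 ± 0.236 and mTR WT at 11.52 ± 0.142 (SD, n = 3 each). Its gaps were no wider than the larger SD of neighbours.

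The Cyp4a values differed between litters in a test that pools both lines; it was not run for each line. A moderated F test in limma of litter within line, with KO as a term, called all 6 probes, against 24.7% of all tested probes. Cyp4a31 had the largest statistic of the 6 (F = 80.0, adjusted p 4.97e-05), followed by Cyp4a12b (F = 14.6, adjusted p 0.00545) and Cyp4a14 (F = 12.3, adjusted p 0.00852). The shared probe, Cyp4a10 and Cyp4a12a had adjusted p of 0.0113, 0.0140 and 0.0212. The count rested in part on single arrays: without mTERT WT 1 it was 2, and without mTERT KO 1 it was 4. Calls over all tested probes moved too, from 2881 to 5050 in the fits that left out 1 array.

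Much of this lay between set 1 and the others. With group means removed, limma called 3 of 6 probes as lower in set 1 than in sets 2 and 3, against 21.1% of tested probes called lower and 17.1% called higher. Cyp4a31 differed by −1.34 (SE 0.237, adjusted p 0.000997), the shared probe differed by −0.77 (SE 0.201, adjusted p 0.0102) and Cyp4a12b by −0.45 (SE 0.110, adjusted p 0.00760). Cyp4a12b was lower in set 1 in all 4 groups, with differences of −0.30 in mTERT KO, −0.51 in mTERT WT, −0.60 in mTR KO and −0.37 in mTR WT livers. Cyp4a12a differed by −0.26 (adjusted p 0.0537), Cyp4a14 by −1.08 (adjusted p 0.118) and Cyp4a10 by −0.20 (adjusted p 0.623), and these did not pass. Set 1 holds only 2 litters, each with a KO and a WT animal that are not independent of each other, so these SEs and adjusted p can be too small. The shared probe's call was lost without mTERT WT 1 (−0.49, adjusted p 0.0547). Without mTR WT 1 the count was 5, as Cyp4a14 (−1.66, adjusted p 0.0295) and Cyp4a10 (−0.68, adjusted p 0.0422) passed too.

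The set difference was then estimated within each line. Within a line set 1 is a single litter of 1 KO and 1 WT animal, so the SEs and adjusted p hold no spread between set 1 litters and can be too small. In the mTERT line limma called 4 of 6 probes in set 1 against sets 2 and 3, all lower, where 13.3% of tested probes were called lower. Cyp4a14 was at 7.79 in the set 1 KO liver against a mean of 10.33 in sets 2 and 3, and at 5.68 in the set 1 WT liver against 8.21. The mTERT difference was −2.54 for Cyp4a14 (SE 0.430, adjusted p 0.00220), −2.12 for Cyp4a31 (SE 0.117, adjusted p 1.19e-06), −1.30 for the shared probe (SE 0.190, adjusted p 0.000969) and −1.09 for Cyp4a10 (SE 0.234, adjusted p 0.00759). The Cyp4a10 call was lost without mTERT KO 1 (−1.21, adjusted p 0.0609) or mTERT WT 1 (−0.97, adjusted p 0.116).

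In the mTR line 1 of 6 probes was called in set 1, Cyp4a31 at −0.57 (SE 0.117, adjusted p 0.00690), where 11.1% of tested probes were called lower. Cyp4a14 was at 9.86 in the set 1 KO liver against a mean of 9.78 in sets 2 and 3, and at 10.29 in the set 1 WT liver against 9.60, a difference of 0.38 (adjusted p 0.575). Cyp4a10 differed by 0.68 (adjusted p 0.0649), with the set 1 WT liver at 9.38 as its highest array of all 12. The Cyp4a31 call was lost without mTR KO 1 (−0.40, adjusted p 0.185).

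The difference between lines was tested itself, as the mTERT set difference minus the mTR one, which sets 1 litter against 1 litter. Cyp4a31 passed at −1.55 (SE 0.165, adjusted p 0.0258) and was the 1 probe of all tested that did (0.00495%), where 1121 probes (5.55%) had an unadjusted p under 0.05. Cyp4a31 had already stood out in earlier results of these arrays through its closely spaced mTERT litter differences (SD 0.157). This call is therefore not independent of those results. That SD was the lowest of the inducible probes but close to the median of 0.163 over all tested probes. For the mTR litters the SD of Cyp4a31 was 0.289, above the median of 0.146. The call was lost in 6 of the fits that left out 1 array, those without mTERT KO 2, mTERT WT 1, mTR KO 1, mTR KO 3, mTR WT 1 or mTR WT 3, with adjusted p between 0.0505 and 0.379. Cyp4a14 (−2.92, adjusted p 0.430), Cyp4a10 (−1.77, adjusted p 0.273) and the shared probe (−1.06, adjusted p 0.760) did not pass.

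**Figure D3:**
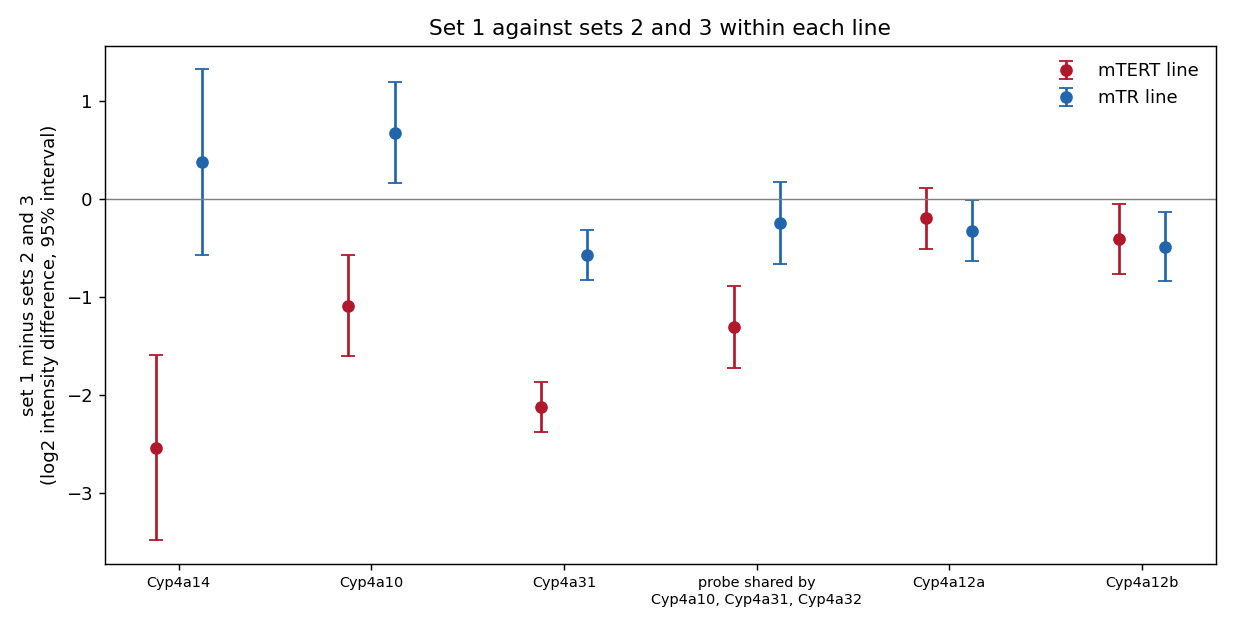
Set 1 minus sets 2 and 3 (log2 intensity difference, vertical axis) for each Cyp4a probe in the mTERT line (red) and the mTR line (blue); points are limma estimates and bars their 95% intervals. In the mTERT line the intervals of Cyp4a14, Cyp4a10, Cyp4a31, the shared probe and Cyp4a12b lie below 0. In the mTR line those of Cyp4a31, Cyp4a12a and Cyp4a12b lie below 0. There Cyp4a10 (0.68) has its interval above 0, and that of Cyp4a14 (0.38) spans 0, from −0.56 to 1.33.

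Pancreas transcripts were present on both set 1 arrays of the mTERT line (means 9.85 in KO and 7.64 in WT) and on mTR KO 1, where they were highest (11.27). On mTR KO 1 Cyp4a14 was 9.86, within 0.08 of the mean of the other mTR KO livers, which read 10.65 and 8.90. Against the mean of those livers, Cyp4a10 was at 8.58 against 8.43 and Cyp4a31 at 7.81 against 8.56. The shared probe was at 9.74 against 10.33. With the pancreas mean as a covariate the mTERT set differences were −2.15 for Cyp4a14, −2.03 for Cyp4a31, −1.17 for the shared probe and −0.92 for Cyp4a10, and limma called all 4. In both lines together, that covariate left 2 calls, since the shared probe went to −0.63 (adjusted p 0.0749). mTERT WT 1, the lowest array of all 4 inducible probes, also had the highest acute phase and muscle means, and their part in the result was not tested. Without that array Cyp4a31 differed by −1.47 between the lines (adjusted p 0.379).

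Over the 12 arrays the inducible probes correlated with each other, and so did the male-biased pair. Cyp4a31 and the shared probe correlated at Pearson's r = 0.966, Cyp4a14 and the shared probe at 0.913, Cyp4a14 and Cyp4a31 at 0.885, and Cyp4a14 and Cyp4a10 at 0.866. Cyp4a12a and Cyp4a12b correlated at 0.918. Between an inducible and a male-biased probe, r ran from 0.044 (Cyp4a14 and Cyp4a12a) to 0.610 (Cyp4a31 and Cyp4a12b). Over the 8 arrays outside set 1 these values were 0.938, 0.844, 0.864, 0.672, 0.945, −0.456 and −0.060 in the same order. Littermates share a litter, and near-identical genes can share probe binding, so these correlations are descriptions with no test.

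**Figure D4:**
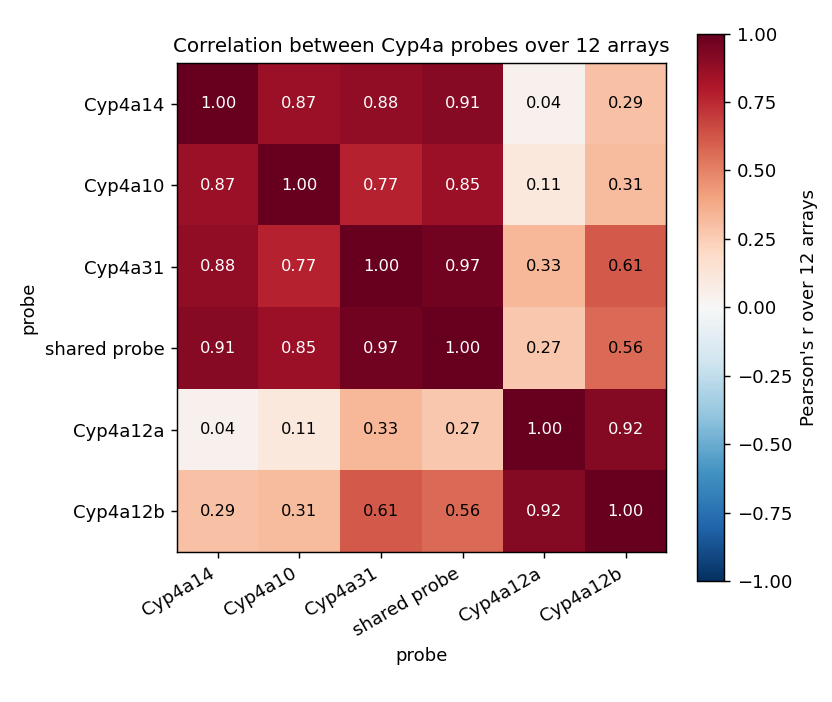
Pearson's r between each pair of Cyp4a probes over 12 arrays, written in the cell and coloured from −1 (blue) to 1 (red). Cyp4a14, Cyp4a10, Cyp4a31 and the shared probe form 1 block of high values, and Cyp4a12a and Cyp4a12b (0.92) another.

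Among 14496 other probes compared, the genes most like Cyp4a14 over the 12 arrays were Ociad2 (r = 0.928), Ces1f, a liver carboxylesterase gene (0.881), Ttc21b (0.875), Slc16a11, a monocarboxylate transporter gene (0.869), Inmt, an indole methyltransferase gene (0.863), Hacl1, a peroxisomal lyase gene of fatty acid alpha-oxidation (0.860), Ndrg1 (0.858) and Acss3, a mitochondrial acyl-CoA synthetase gene (0.855). Outside set 1, over 8 arrays, these were between 0.566 (Acss3) and 0.881 (Ociad2). Their own ranges were narrower than that of Cyp4a14, which spanned 31.4-fold. Ociad2 ran from 7.29 to 7.89. Ttc21b (4.13 to 4.64) and Slc16a11 (4.19 to 4.64) lay near background, with arrays on both sides of 4.34. The genes most like Cyp4a12a were Snrnp48 (0.935), Dmgdh, a mitochondrial choline-breakdown gene (0.892), Hspa4l (0.886), Asb15 (0.883, with all arrays below background at 3.81 to 4.13), Klhl7 (0.878), Wasl (0.875), Magt1 (0.874) and Iqgap2 (0.873).

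Ppara, the gene of the receptor that induces the Cyp4a genes, differed by −0.03 in mTERT KO against WT, by −0.06 in mTR KO against WT (SE 0.174) and by 0.02 in set 1 against sets 2 and 3 (SE 0.126, adjusted p 0.900). Of 16 measured regulator and cofactor genes 9 were above 0 in the mTERT difference (median 0.01), and the mTR test called 0. In set 1, limma called 5 higher and 0 lower, among them the retinoid X receptor genes Rxra (0.66) and Rxrb (0.44), the hepatocyte factor gene Hnf4a (0.58) and Nr0b2, a bile acid-induced repressor (0.72). Cyb5a, the electron donor cytochrome b5, was the fifth at 0.31. Over all 14159 tested genes, 2098 were called higher in set 1 and 3020 lower. A link between these genes and the Cyp4a values was not tested.

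Other PPARA targets were described by lists. In the mTERT difference 18 of 21 peroxisomal genes were above 0 (median 0.08), 15 of 18 mitochondrial and ketone genes (median 0.04) and 20 of 31 other lipid genes (median 0.06), against 50.7% of all 19938 genes (median 0.00). In the mTR difference the counts above 0 were 12, 9 and 13 for the same lists, against 49.3% of all genes, and limma called 0 in each. The largest peroxisomal difference in the mTERT line was that of Abcd2, the peroxisomal transporter of very long-chain fatty acids, at 0.93. Acot1, a cytosolic acyl-CoA thioesterase gene, differed by 0.68 and Vnn1, a pantetheinase gene, by 0.62; they were chosen after their values were seen.

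Abcd2 was lowest in the same mTERT livers as Cyp4a14. It read 4.74, 7.62 and 7.68 in mTERT KO livers and 4.06, 5.72 and 7.47 in mTERT WT livers, with the set 1 livers lowest in both. It read 5.33, 6.42 and 5.10 in mTR KO livers and 5.27, 5.89 and 6.20 in mTR WT livers. Its set 1 difference was −1.66 (SE 0.419, adjusted p 0.00856), the lowest of all measured genes, with −2.72 in the mTERT line (SE 0.420, adjusted p 0.00130). The mTERT WT 1 value was below background.

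In set 1 the peroxisomal list had 2 genes called higher (Acot8 at 0.44 and Pex11a at 0.55) and 6 lower, among them Abcd2 and Abcd3 (−0.45). The mitochondrial and ketone list had 1 higher and 9 lower, among them Acadl, a long-chain acyl-CoA dehydrogenase gene (−0.50), and Decr1, a reductase gene for unsaturated fatty acids (−0.46). The other lipid list had 6 higher and 3 lower. Its largest differences were the lipid droplet genes Plin5 (1.35) and Plin4 (1.01). Over all 14159 tested genes 2098 were called higher and 3020 lower.

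**Figure D5:**
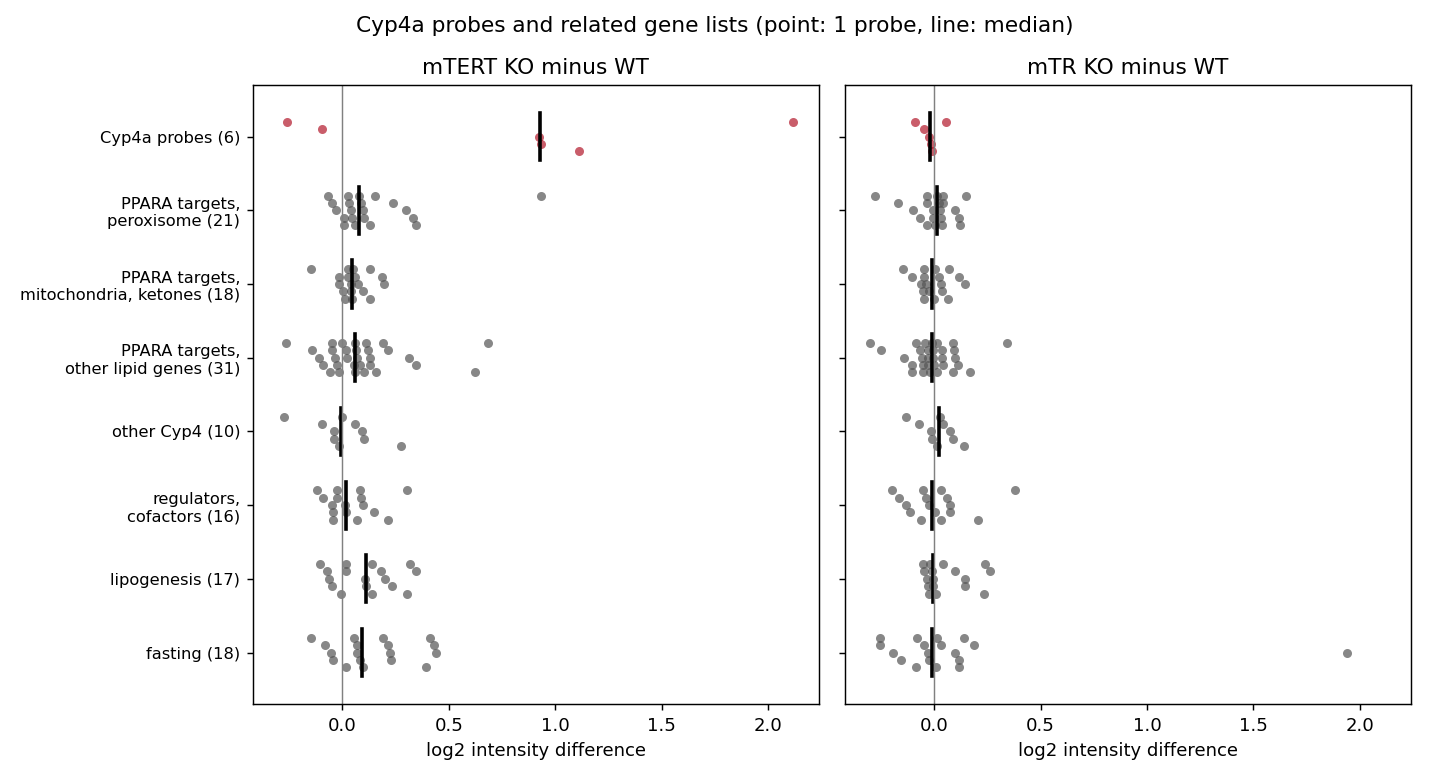
Log2 intensity difference (horizontal axes) of KO minus WT in the mTERT line (left) and the mTR line (right) for the 6 Cyp4a probes (red) and 7 gene lists (grey, number of measured genes in brackets); each point is 1 probe and the line the median. In the mTERT panel, the contrast by which the family was picked, the Cyp4a points run from −0.26 to 2.12 and those of the peroxisomal list reach 0.93 (Abcd2); in the mTR panel the Cyp4a points run from −0.09 to 0.06.

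Outside the Cyp4a group the Cyp4 family was close to 0 in the KO comparisons. Of 10 other measured Cyp4 genes 4 were above 0 in the mTERT difference (median −0.01) and 6 in the mTR difference (median 0.02), and limma called 0 in mTR. In set 1, Cyp4b1, which lies beside the Cyp4a cluster, rose by 0.56 (SE 0.0855, adjusted p 0.000388) and Cyp4f13, an omega-hydroxylase of the Cyp4f branch, by 0.28 (SE 0.0818, adjusted p 0.0186). Of 13 other protein-coding genes in and beside the cluster (6 on each side of it), 11 were measured and 8 were above background. Their mTERT differences ran from −0.13 to 0.29 (Pdzk1ip1) and their mTR differences from −0.22 to 0.14.

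Lists for states that are known to change Cyp4a RNA were read in the same way. Fasting genes were above 0 in 14 of 18 in the mTERT difference (median 0.09) and in 9 of 18 in the mTR difference. In set 1 limma called 5 of them higher and 3 lower, with Lpin1, a lipid phosphatase gene, at 1.61. Lipogenesis genes were above 0 in 12 of 17 (median 0.11) and 8 of 17, with 4 called higher and 2 lower in set 1. Male-biased liver genes were above 0 in 10 of 20 in the mTERT difference and 8 of 20 in the mTR difference, and female-biased genes in 15 of 20 (median 0.08) and 9 of 20. Of all genes, 50.7% and 49.3% were above 0. The lists share genes, such as Abcd2 in the female-biased and peroxisomal lists, so their counts are not independent. The set 1 counts stand beside 2098 genes called higher and 3020 lower of all 14159 tested. In set 1 the male-biased list had 1 gene called higher and 3 lower, the female-biased list 1 and 7, and the growth hormone list 0 and 4, with the feedback inhibitor gene Socs2 at −1.38 (adjusted p 0.0418). Growth hormone genes were above 0 in 8 of 12 in the mTERT difference and 4 of 12 in the mTR difference. For pericentral liver genes this was 4 of 13 and 10 of 13, and for circadian clock genes 8 of 17 and 9 of 17. In set 1 the pericentral list had 0 genes called higher and 5 lower, and the clock list 3 and 3. Acute phase genes, the list chosen after values were seen, were above 0 in 1 of 16 in the mTERT difference (median −0.26). In the mTR difference 10 of 16 were above 0 (median 0.02), and in set 1 limma called 5 higher and 1 lower. The limma test of mTR KO against WT called 0 genes of any of these lists.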

How the data were processed

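Liver RNA of 12 mice was hybridised to 12 one-colour Affymetrix arrays. The deposited values were log2 intensities for 28853 probes; the roles of PLIER, Affymetrix Expression Console and GCOS 1.4, all listed per the submitters' processing notes, and the normalization and log base are not given in the sources used here. Probes were named from the array annotation (21789 with 1 symbol, 1621 with several, 5443 with none), and 21698 matched RefSeq. Members, lists and tests were chosen with earlier results of these data known.

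Tables were made with Python 3.11.15 and pandas 2.3.3. limma 3.58.1 in R 4.3.3 (lmFit of 4 group means over 12 arrays, eBayes, two-sided) tested the 20197 probes above the 30th percentile of mean log2 intensity (3.90), with Benjamini-Hochberg adjustment over all of them and a threshold of 0.05. Set 1 and litter were added as terms. The code was tested on simulated data. The small number of arrays limits precision. Nothing states that animals beyond the litters were independent.

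Same-numbered KO and WT arrays are read here as littermates, since the series text states littermate sets. For mTERT sets 1 to 3 their deviations from group means had r = 0.692, 0.135 and 0.623, and for mTR sets 0.458, 0.151 and 0.552. In both lines KO 2 correlated more with WT 3 (0.416 in mTERT, 0.464 in mTR) than with WT 2. A set 1 shift shared by the groups can also raise r between same-numbered arrays. These values therefore cannot decide whether the numbers pair the samples.

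Genes were named by rule: all members, in each list up to 4 tested genes with the largest difference in set 1 and up to 4 in mTR KO against WT (1 probe a gene), all regulators and cofactors, and the 8 probes most correlated with Cyp4a14 and with Cyp4a12a. Alternatives were quantile normalization, median centring, other filters, trend and robust settings, array weights, litter blocks and leaving out arrays. Tests of set 1 within each line and between lines, the pancreas covariate, and the removal of the pancreas-bearing arrays were chosen after seeing the data.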

Additional observations from a re-analysis of the deposited data

Results flagged for a closer look

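The set 1 difference of 3 Cyp4a probes stood out for its gap between the mTERT and mTR lines, which passed the test for Cyp4a31 alone. For Cyp4a31 the mTERT difference minus the mTR difference was −1.55 (limma, adjusted p 0.0258), the 2 lines having −2.12 (mTERT) and −0.57 (mTR). For Cyp4a14 it was −2.92 (limma, adjusted p 0.430). Its set 1 livers were below the mean of sets 2 and 3 in both mTERT groups and above it in both mTR groups. The mTR differences were 0.08 in KO and 0.68 in WT livers. In mTR KO, set 1 (9.86) lay between set 3 (8.90) and set 2 (10.65). For Cyp4a10 the difference between the lines was −1.77, with the same directions against those means (limma, adjusted p 0.273). Its mTR differences were 0.15 in KO and 1.21 in WT livers. The Cyp4a31 call was lost in 6 of the fits without 1 array and with arrays centred on their median. Each line has 1 litter in set 1, so line and litter cannot be told apart in this difference.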

How the results depend on the processing

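Between mTR KO and WT livers 0 of the 6 Cyp4a probes passed by limma under every setting run, with the litter as a replicate block (0), without set 1 (0), without the pancreas-bearing arrays (0) and without any 1 array (0 to 0). The mTERT differences, which chose the family, were 1.28 for Cyp4a14 and 0.38 for Cyp4a31 without mTERT WT 1. The count of 3 probes called in set 1 ranged from 2 to 5 without 1 array, was 5 without mTR WT 1 and 2 without mTERT WT 1, and was 3 with the litter as a random block. With the mTR arrays alone the set 1 difference of Cyp4a10 was 0.68 (limma, adjusted p 0.0389), against −0.20 in both lines. Cyp4a12a passed in set 1 under quantile normalization (adjusted p 0.0483), trend and robust settings (0.0349) and array weights (0.0262). Cyp4a14 passed without mTR KO 3 (−1.33, adjusted p 0.0461) or mTR WT 1 (−1.66, adjusted p 0.0295). The count of 6 between litters was 3 with trend and robust settings and 2 to 6 without 1 array. Within lines, the mTERT count of 4 was 3 to 5 without 1 array. The mTR count of 1 was 2 under quantile normalization or with the pancreas covariate, and 1 to 2 without 1 array. The count of 1 for the difference between lines was 0 with arrays centred on their median (adjusted p 0.0541) and 0 to 1 without 1 array. Calls over all tested probes moved as well when 1 array was left out. They were 5831 to 7660 in set 1, 2881 to 5050 between litters, 1574 to 4653 in the mTERT line and 883 to 3311 in the mTR line.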
